A study of Mus musculus with 12 samples.

Results

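Wdr89, Sgpp1, Syne2, Esr2 and Fut8 lie in that order on mouse chromosome 12, and they are 5 of the 23870 named genes measured. Sgpp1, Syne2 and Fut8 were chosen by their read density in these same libraries, where background reads crowd over them, and Wdr89 and Esr2 because they flank the Sgpp1-Syne2 stretch. Their levels below are therefore a description with no test. The values come from IgG control libraries of mpkCCD clone 11 cells, a transformed line of mouse renal collecting duct principal cells, in a study of vasopressin and transcription. The series holds 4 groups of 3 samples, of which the IgG groups kept with 0.1 nM dDAVP (a vasopressin analog selective for the V2 receptor) or with its vehicle were used. Both groups were otherwise handled alike: cells were grown in 2% dialyzed serum and then on permeable supports, taken 24 h after the serum was withdrawn, with the agent or vehicle present all along, and fixed with 1.11% formaldehyde. The 6 RNA polymerase II samples were not analysed here. Since IgG reads come from DNA and not RNA, the cell type could not be checked by marker genes, and the line is a single clone.

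An IgG pull-down has no specific target, so its reads sample chromatin broadly. Their density along a chromosome is known to follow how many copies of a stretch the cells hold, how open and how GC-rich it is, and how much of it can be mapped uniquely. As for the genes, Sgpp1 encodes a sphingosine 1-phosphate phosphatase of the endoplasmic reticulum, which returns that lipid signal to sphingosine. Syne2 encodes nesprin-2, a giant protein of the outer nuclear membrane that ties the nucleus to the cytoskeleton as part of the LINC complex. Fut8 encodes the Golgi enzyme that adds core fucose to N-glycans, Esr2 encodes oestrogen receptor beta, and Wdr89 encodes a WD repeat protein. Nothing here measures their expression.

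The authors counted reads over the whole genomic span of each RefSeq transcript, with its introns, on build mm10. The 5 genes have 11 transcript intervals of 8 distinct extents. Wdr89 (minus strand) spans 75630594 to 75669537, Sgpp1 (minus) 75714248 to 75735729, Syne2 (plus) 75818318 to 76110928 and Esr2 (minus) 76120419 to 76177259, each with 1 extent. The 5 Fut8 transcripts (plus) all end at 77475996 and begin at 4 places, namely 77238104, 77238739, 77388864 and 77410141.

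The Fut8 starts divide the gene into segments, and the sequence around them bears on how reads can be placed there. In the sequences that follow, each the 250 bases before a start on the plus strand (RefSeq, GRCm38.p6), capitals mark CG dinucleotides in the first and the run shared by the other two.
Before the first start, chr12:77237854-77238103: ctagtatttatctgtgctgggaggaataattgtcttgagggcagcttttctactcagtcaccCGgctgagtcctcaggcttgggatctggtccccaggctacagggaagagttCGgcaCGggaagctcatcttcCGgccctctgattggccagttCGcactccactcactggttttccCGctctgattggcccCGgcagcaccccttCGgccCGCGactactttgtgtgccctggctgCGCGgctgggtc
Before the third start, chr12:77388614-77388863: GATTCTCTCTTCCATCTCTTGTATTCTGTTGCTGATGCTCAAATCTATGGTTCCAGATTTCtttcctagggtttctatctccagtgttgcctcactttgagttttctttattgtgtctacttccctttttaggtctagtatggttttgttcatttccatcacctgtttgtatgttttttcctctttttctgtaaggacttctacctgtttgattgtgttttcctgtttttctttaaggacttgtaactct
Before the fourth start, chr12:77409891-77410140: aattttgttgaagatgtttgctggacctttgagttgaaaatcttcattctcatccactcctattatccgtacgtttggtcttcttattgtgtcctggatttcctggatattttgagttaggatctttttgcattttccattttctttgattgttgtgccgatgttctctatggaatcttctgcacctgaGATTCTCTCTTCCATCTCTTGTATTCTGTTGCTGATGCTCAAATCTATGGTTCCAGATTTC
The window before the first start had a GC content of 59.2% with 12 CG dinucleotides, and all 201 of its 50-mers (runs as long as a read) occurred once in the reference. The windows before the third and the fourth start had 36.4% and 37.6% GC, were masked as repeats over 100% of their bases, and shared an identical run of 61 bases. In both of these, 0 of 201 50-mers occurred once, so no read of 50 bases lying wholly within them has a single exact place in the genome.

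Depth is given by total counts over all intervals, which ran from 10588927 to 19748658 per library, with a median interval of 92 to 155 reads. The counts of experiments 1 and 2 of each group agreed within sampling noise (chi-square over its degrees of freedom 1.02 with dDAVP and 1.01 with vehicle, against 5.02 to 89.1 for other pairs within a group). Each such pair was treated as a single sample, giving n = 2 for either group, and nothing in the labels says that the experiments were separate cultures. Between the groups the value was 1.68 to 1.78 among experiments 1 and 2 and 7.06 to 148 for pairs with an experiment 3. The libraries thus differed more by experiment 3 than by treatment. dDAVP experiment 3 stands apart: median density in the highest GC decile of genes over that in the lowest was 8.35 there and 0.472 to 0.840 in the other 5 libraries. Levels below are reads per kb divided by the reads per kb of the median gene of the same library.

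Syne2 was the densest of the 5 genes in each library but vehicle experiment 3. It held 25095, 23815 and 27524 reads in dDAVP experiments 1, 2 and 3, and 20989, 19964 and 31079 with vehicle. Over its 292.6 kb this made levels of 10.9, 10.8 and 10.1 under dDAVP and of 11.2, 11.2 and 10.1 under vehicle. The 6 libraries thus lay close together and the groups overlapped, with means of 10.5 ± 0.5 and 10.6 ± 0.8 (SD, n = 2). By density Syne2 ranked 19 to 31 among 23870 genes in 5 libraries and 139 in dDAVP experiment 3. It took 0.242 to 0.333% of the reads counted with 1 interval per gene.

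Sgpp1 stood below Syne2 in all 6 libraries. Its level was 7.41, 7.45 and 6.13 times the median gene in dDAVP experiments 1, 2 and 3. With vehicle it was 7.40, 7.48 and 6.94, so that dDAVP experiment 3 was the lowest and the groups overlapped. Its mean was 6.78 ± 0.92 under dDAVP and 7.19 ± 0.35 under vehicle (SD, n = 2 each). Sgpp1 had 0.609 to 0.690 of the density of Syne2, its neighbour across 82.6 kb without a named gene.

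The flanking genes were far less dense. Wdr89 had levels of 1.40, 1.39 and 1.58 in the 3 dDAVP libraries and of 1.45, 1.501 and 1.62 under vehicle. Esr2 had 1.66, 1.64 and 1.81 under dDAVP and 1.60, 1.59 and 1.79 under vehicle. In either gene experiment 3 held the highest value of its group, and the groups overlapped. These levels lie near those of chromosome 12 as a whole, whose median gene of 2 kb or more stood at 1.35 to 1.48 in the 6 libraries. Syne2 was 6.19 to 7.79 times as dense as Wdr89 and 5.55 to 7.01 times as dense as Esr2.

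Fut8 was dense in 5 libraries and much less so in the other one. Its level was 9.23 and 9.16 times the median gene in dDAVP experiments 1 and 2 and 2.83 in dDAVP experiment 3. With vehicle it was 9.82, 9.88 and 10.3, above every dDAVP library. Its mean was 6.01 ± 4.50 under dDAVP and 10.1 ± 0.3 under vehicle (SD, n = 2 each), the former joining a sample at about 9 with experiment 3. Fut8 has a GC content of 37.5%, the lowest of the 5 genes, while the other 4 range from 42.8 to 44.5%.

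**Figure D1:**
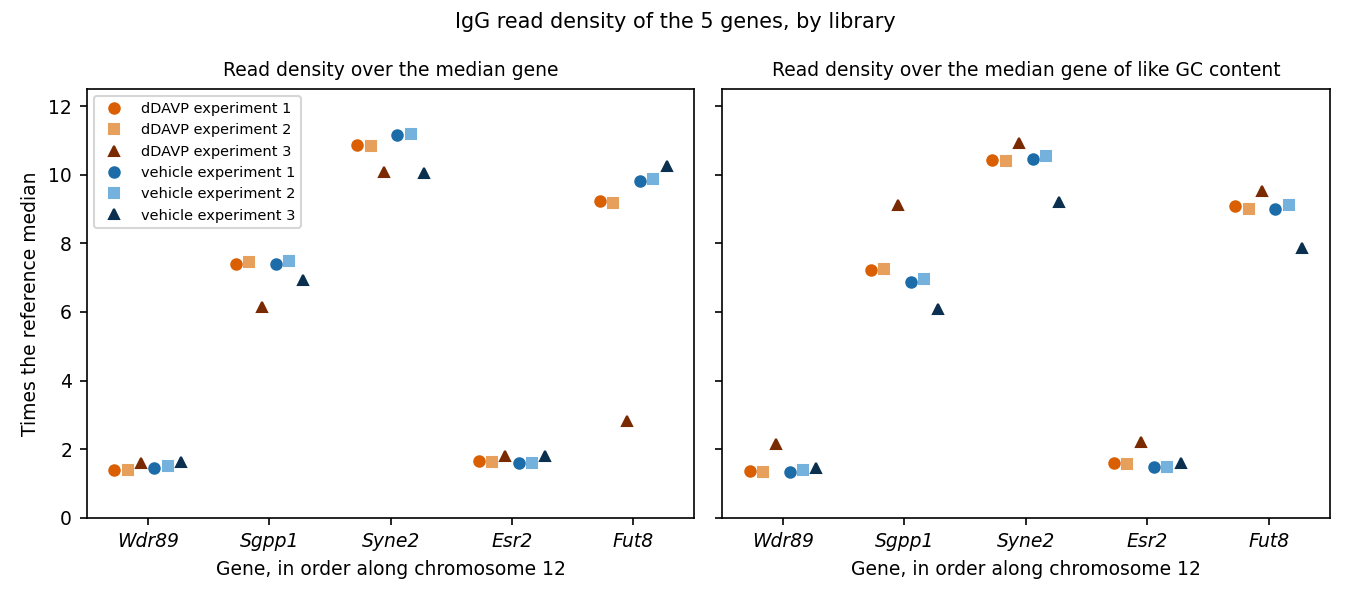
Read density of the 5 genes in each of the 6 IgG libraries (points), as times the median gene of the same library on the left and as times the median of genes of at least 2 kb within 1 point of GC content on the right. On the left Fut8 in dDAVP experiment 3 (2.83) sits far below its other points, and on the right all 6 Fut8 points lie between 7.85 and 9.52.

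Set against genes of like GC content (1104 genes for Fut8), the level of Fut8 was 9.09, 9.01 and 9.52 under dDAVP and 9.001, 9.13 and 7.85 under vehicle. The whole-gene value of dDAVP experiment 3 was thus no longer apart from the rest on this scale, although the segments of Fut8 still were (below). The part of GC content in the low value was not tested. Syne2 changed little, at 10.4, 10.4 and 10.9 with dDAVP and 10.5, 10.6 and 9.21 with vehicle. Sgpp1 ran from 6.09 in vehicle experiment 3 to 9.13 in dDAVP experiment 3, and the same 2 libraries had 1.45 and 2.16 for Wdr89 and 1.61 and 2.21 for Esr2.

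Of the 5 genes, Sgpp1, Syne2 and Fut8 reached 2 times the median gene in every library. Over all genes 77 of 23870 did (0.323%). The choice of the genes fixed that count. By density Sgpp1 ranked 41 to 77 and Fut8 17 to 43 in the libraries other than dDAVP experiment 3. In that library they ranked 362 and 2161, so by this rank among all genes Fut8 did not stand out there. Against genes of like GC content its level in that library was still 9.52.

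The bases covered show how the reads of Sgpp1 were spread. If the reads of Syne2 in dDAVP experiment 1 fell evenly, 98.6% of its bases would be covered, and 96.7% were. For Wdr89 the corresponding values were 42.5% and 39.5%, and for Esr2 48.1% and 45.5%. For Fut8 they were 97.4% and 85.3%. For Sgpp1 they were 94.6% and 75.2%, the widest gap of the 5 genes in that library. In the others Sgpp1 had 93.9% against 74.98% in dDAVP experiment 2, 90.7% against 67.6% in vehicle experiment 1, 89.8% against 66.4% in vehicle experiment 2 and 97.4% against 83.5% in vehicle experiment 3. In vehicle experiments 1 and 2 the other genes fell short as well, Syne2 with 97.2% against 90.9% and 96.7% against 89.9%, and Fut8 with 95.8% against 79.6% and 95.1% against 78.8%. There Wdr89 had 37.2% against 28.4% and 36.8% against 28.2%, and Esr2 had 40.2% against 32.2% and 38.5% against 29.6%. Relative to an even spread, the shortfall of Wdr89 in these libraries was close to that of Sgpp1. In dDAVP experiment 3 all 5 genes fell far short of an even spread, Syne2 included (99.1% against 55.9%). Of the 50-mers of Sgpp1 97.1% occur once, and these reach 99.3% of its bases. The part of mapping and of duplicate reads in its coverage was not tested.

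**Figure D2:**
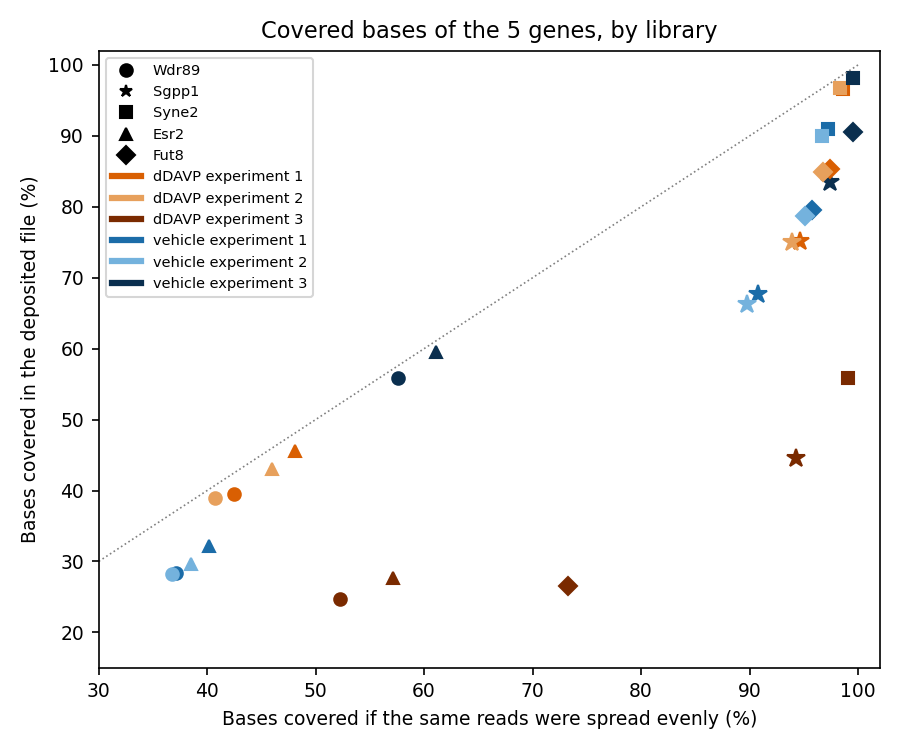
Bases covered by at least 1 read in the deposited files (vertical axis, %) against the share that the same reads would cover if spread evenly over the gene (horizontal axis, %), for 5 genes (symbols) in 6 libraries (colours). The dotted line marks equality, and the Sgpp1 stars lie well below it, for example 75.2% against 94.6% in dDAVP experiment 1.

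A gene made of a stretch at the level of Syne2 and a stretch at the level of Wdr89 would be covered in such an uneven way. Solving for the share at the higher level gave 63.5%, 64.2% and 53.6% of Sgpp1 from the reads of dDAVP experiments 1, 2 and 3. Under vehicle it gave 61.3%, 61.8% and 63.01%. From the covered bases the share was 62.4%, 62.4% and 63.5% with dDAVP and 62.8%, 61.8% and 65.3% with vehicle. Both readings come from the same reads, and they lie furthest apart in dDAVP experiment 3. With Esr2 as the lower level the shares were 52.3 to 63.2% from reads and 58.0 to 61.9% from covered bases. Of the 21.5 kb of Sgpp1, the stretch at the higher level would be 11.5 to 13.8 kb by reads and 13.3 to 14.0 kb by covered bases with Wdr89 as the lower level, and 11.2 to 13.6 kb and 12.45 to 13.3 kb with Esr2. The same solution did not hold up within Fut8, between the levels of Max and of the segment after the last start. For the segment from the second to the third start it gave 67.3% from reads but 83.8% from covered bases in dDAVP experiment 1, and 8.74% and an impossible -28.2% in dDAVP experiment 3. Max, at 45.9% GC, lies further in GC content from the Fut8 segments (37.0 to 38.2%) than Wdr89 and Syne2 do from Sgpp1. It is thus not a like check, and the part of GC content in it was not tested. The single interval of Sgpp1 does not say which end that would be, nor that there are only 2 levels.

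An edge between neighbouring genes was called where their densities differed at least 2-fold in the same direction in every library, among genes of 2 kb or more from Syt16 to Rad51b on chromosome 12. There were 3 such edges. The first lay between Wdr89 and Sgpp1 (3.87-fold to 5.36-fold across libraries), which are 44.7 kb apart. The second lay between Syne2 and Esr2, whose intervals are only 9.49 kb apart. Between Sgpp1 and Syne2 lie 82.6 kb without a named gene, so a single dense stretch around both is not shown. Such a stretch would lie within the 450.9 kb from the end of Wdr89 to the start of Esr2, unless it runs into either gene.

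The third edge lay between Fut8 and Gphn, which encodes the synaptic scaffold gephyrin and begins 750.7 kb beyond. Gphn had levels of 1.30, 1.26 and 0.563 under dDAVP and of 1.45, 1.44 and 1.78 under vehicle. The next genes, Fam71d and Mpp5, had means of 1.37 and 1.14. Of the 15 genes of 2 kb or more beyond Fut8, the translation factor gene Eif2s1 had the lowest mean (1.06) and Plek2 the highest (1.68). On the other side Max, the gene of the dimerization partner of Myc, ends 275.9 kb before Fut8. Fut8 was 6.62, 6.40 and 1.99 times as dense as Max with dDAVP and 6.19, 5.68 and 6.60 times with vehicle. That step met the rule in 5 libraries and narrowly missed it in dDAVP experiment 3. Max has a GC content of 45.9%, against 37.5% for Fut8 and 36.8% for Gphn. The part of GC content in the miss was not tested. No other named gene, by its longest interval, lies between Max and Gphn, so the named genes do not place the ends of the dense stretch around Fut8 more closely.

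Syne2 and Fut8 are separated by ordinary density. Between Esr2 and Fut8, over 1060.8 kb, 15 genes of 2 kb or more stood at 0.740 to 1.89 times the median gene in the 5 libraries other than dDAVP experiment 3. In dDAVP experiment 3 they ran from 0.765 to 4.62, the highest being the GC-rich chaperone gene Hspa2 (54.5% GC). Over the samples the lowest mean belonged to Gm10451 (0.854) and the highest to the glutathione peroxidase gene Gpx2 (2.01 ± 0.60, SD, n = 4). The genes next to Esr2 were Tex21, the folate enzyme gene Mthfd1 and the kinase anchor gene Akap5, at means of 1.53, 1.28 and 1.74. Those next to Fut8 were Max, the farnesyltransferase subunit gene Fntb and the small GTPase gene Rab15, at 1.51, 1.56 and 1.53. Before Wdr89 came Ppp2r5e, a phosphatase 2A subunit gene, at 1.18 and the hormone subunit gene Gphb5 at 1.80. The highest mean before Wdr89 was that of Dbpht2, 2.995 kb long, with levels of 1.95, 2.18 and 0.2503 under dDAVP and of 2.70, 3.01 and 2.56 under vehicle, from 7 to 81 reads.

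**Figure D3:**
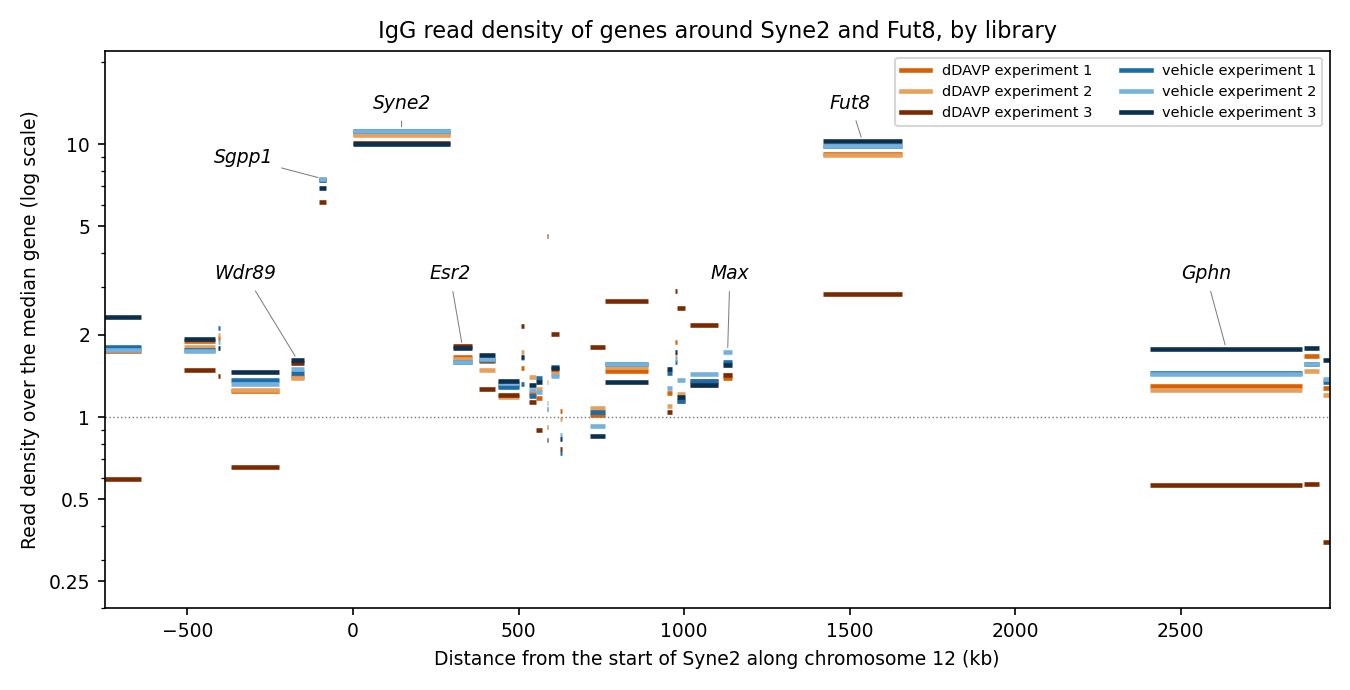
Read density of genes of at least 2 kb (horizontal bars, each as long as its gene) as times the median gene of the library, on a log scale, against distance in kb from the start of Syne2, in 6 IgG libraries (colours). Syne2 (10.1 to 11.2) and Fut8 (2.83 to 10.3) stand above the genes between them, and the bars of dDAVP experiment 3 scatter most.

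Short intervals within the genes gave too few reads to place an edge. Mir5101, a microRNA gene of 83 bases inside Syne2, had 11, 9 and 0 reads in dDAVP experiments 1, 2 and 3 and 18, 5 and 16 with vehicle. Rplp2-ps1, a ribosomal protein pseudogene of 825 bases inside Wdr89, had 9, 6 and 69 with dDAVP and 2, 4 and 13 with vehicle. Reads over them are also counted in Syne2 and Wdr89.

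Within Fut8 the nested transcripts showed uneven density. The deposited counts of a transcript minus those of the next shorter one give the reads of each segment between starts. The segment from the second to the third start, of 150.1 kb, had levels of 8.75, 8.63 and 1.77 under dDAVP and of 9.30, 9.29 and 9.36 under vehicle. The last segment, of 65.9 kb from the fourth start to the end of the gene, had 12.3, 12.4 and 5.38 under dDAVP and 13.0, 13.3 and 14.5 under vehicle. It was the denser of the pair in all 6 libraries, the earlier segment having 0.646 to 0.713 of its density in 5 libraries and 0.329 in dDAVP experiment 3.

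Between the third and the fourth start, the ones preceded by repeat sequence, lies a segment of 21.3 kb with far fewer reads. It held 522, 499 and 331 reads with dDAVP and 505, 456 and 847 with vehicle. That made levels of 3.11, 3.12 and 1.67 under dDAVP and of 3.69, 3.51 and 3.77 under vehicle. Its density was 0.252 to 0.310 of that of the last segment in all 6 libraries. Compared with Max it was 2.02 to 2.43 times as dense in 5 libraries and 1.17 times in dDAVP experiment 3.

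The 3 segments also differ in how much of them is unique. In the 21.3 kb segment 66.7% of 50-mers occur once, against 88.9% in the segment before it and 94.9% in the last one, and masked repeats make up 52.7%, 40.3% and 33.5%. Per 1000 unique 50-mers, again over the median gene per kb, the 21.3 kb segment had 4.66, 4.68 and 2.498 with dDAVP and 5.53, 5.26 and 5.65 with vehicle. In the same order the segment before it had 9.85, 9.70, 1.99, 10.5, 10.5 and 10.5, and the last one 13.0, 13.0, 5.67, 13.7, 14.0 and 15.3. The gap thus narrowed on this scale but remained in 5 libraries, whereas in dDAVP experiment 3 the 21.3 kb segment lay above the segment before it. How reads with several places were treated is not given in the sources used here, so the part of mapping in this dip was not tested.

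**Figure D4:**
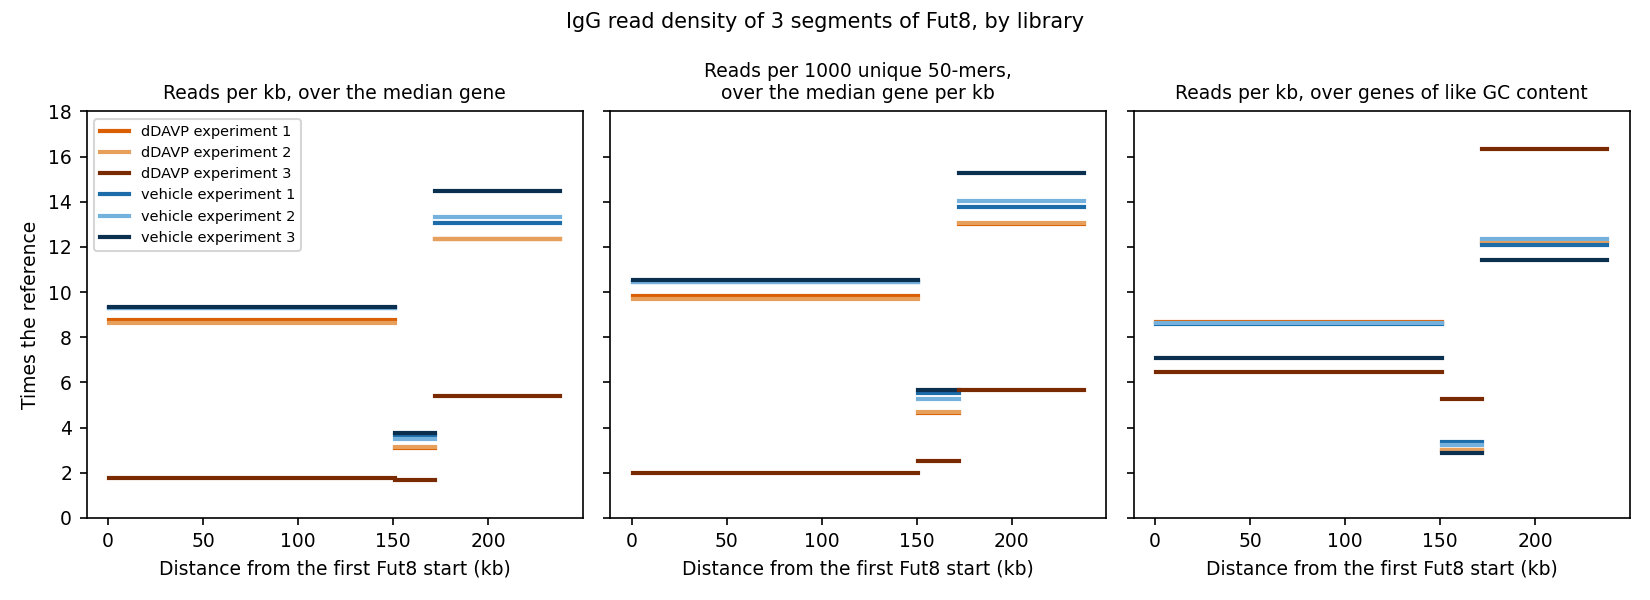
Read density of 3 segments of Fut8 (horizontal bars, each as long as its segment) against distance in kb from the first Fut8 start, in 6 IgG libraries (colours). From left to right the panels show reads per kb over the median gene, reads per 1000 unique 50-mers over the median gene per kb, and reads per kb over genes of like GC content; the middle segment of 21.3 kb is the lowest in all 6 libraries on the left and right and in 5 in the centre, where it lies above the first segment in dDAVP experiment 3.

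The 3 segments have similar GC contents of 37.0 to 38.2%, but dDAVP experiment 3 placed them differently. Against genes of like GC content the 150.1 kb segment had 6.47 there and 7.09 to 8.68 in the other libraries, the 21.3 kb segment had 5.26 against 2.88 to 3.35, and the last segment 16.3 against 11.4 to 12.3. The 635 bases between the first and second starts are the GC-rich beginning of the gene, at 69.3% GC. They held 162 reads in dDAVP experiment 3 but 31 and 30 in dDAVP experiments 1 and 2 and 17, 16 and 21 with vehicle. That is 27.3 times the median gene in the one library and 3.13 to 6.28 in the others, so the beginning of Fut8 was highest in the library where the gene as a whole was lowest.

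The comparison of dDAVP with vehicle asks whether the background under these genes moved with the treatment. None of the 5 genes passed edgeR's quasi-likelihood test, where 0 of 30912 intervals did (0%). At an unadjusted p under 0.05 edgeR had 236 of them, and DESeq2 had 1117 with 0 called. All 236 were higher with dDAVP, as were 1106 of the 1117. That direction depended on the fit. With experiment as a block 22 were higher and 188 lower, the only fit that leaned lower. With a GC offset 173 were higher and 94 lower, and with block and offset together 336 and 190. The counts of 236 and 1117 are below a share of 0.05 of the intervals, so these tests were cautious and the lack of calls says little. For Syne2 the log2 ratio (dDAVP over vehicle) and its SE were -0.00089 ± 0.52, and its 95% interval reached from -1.30 to 1.30 (edgeR adjusted p = 0.999). For Sgpp1 they were -0.06 ± 0.32, and the interval reached from -0.85 to 0.73 (edgeR adjusted p = 0.912). The interval for Wdr89 was -0.79 to 0.72 around -0.04 (edgeR adjusted p = 0.948), and that for Esr2 -0.69 to 0.80 around 0.05 (edgeR adjusted p = 0.922). Even the narrowest of these intervals, that of Esr2, leaves room for a change in either direction. They come from the fit without a GC offset. With that offset the log2 ratio and SE were 0.32 ± 0.21 for Wdr89 and 0.35 ± 0.17 for Sgpp1. For Syne2 they were 0.11 ± 0.12 and for Esr2 0.30 ± 0.18 (edgeR adjusted p = 0.965 for each gene).

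Fut8 had the largest ratio of the 5, at -0.71 ± 0.69 (SE), its 95% interval reaching from -2.42 to 0.99 (edgeR adjusted p = 0.619). All 3 dDAVP libraries lay below all 3 vehicle libraries, but the difference of the means was smaller than the SD under dDAVP. Matched by experiment number, the density of Fut8 over the median gene with dDAVP was 0.934 of that with vehicle in experiments 1 and 2 and 0.276 in experiment 3. Whether libraries of the same number are pairs is not known. Without dDAVP experiment 3 the log2 ratio was -0.10, from a fit with a lone dDAVP sample that is assumed to vary like the vehicle samples, and with an offset for GC content it turned to 0.14 (edgeR adjusted p = 0.965). Over all alternatives the adjusted p for Fut8 ran from 0.556 to 0.99995. For Syne2 the ratio by experiment number was 0.971 in experiments 1 and 2 and 1.002 in experiment 3, and for Sgpp1 it was 0.999 and 0.884.

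Related genes elsewhere are given beside the share of all genes that reached 2 times the median gene in every library, 0.323%, by which short lists would mostly hold 0 such genes. Of 13 other genes of sphingosine 1-phosphate metabolism and reception, 0 reached 2 times the median gene in every library, and their means ran from 0.533 for the kinase gene Sphk2 to 1.71 for the receptor gene S1pr1. Sgpp2, which encodes the other phosphatase of the pair, had 0.805 to 0.995. Of 7 other LINC complex genes 0 did, from Syne4 at 0.667 to Syne1, the gene of nesprin-1, at 1.41. Syne3, which shares chromosome 12 with Syne2, had 1.03 to 2.32, the highest in dDAVP experiment 3. Of 9 other fucosyltransferase genes 0 did, from Fut11 at 0.562 to Pofut2 at 1.71. The mean of Pofut2 was raised by dDAVP experiment 3, at 3.64 against 0.786 to 1.35 in the other libraries.

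The lists around Esr2 and Wdr89 held 1 gene past that level, and on chromosome 12 itself 24 of 813 genes were past it. Among 5 oestrogen receptor and related genes, Esrrb on chromosome 12 reached 2 times the median gene in every library, at 9.20 to 17.6, while Esr1 had 0.629 to 1.57 and the lowest mean was that of Gper1 (1.05). Among 8 other WD repeat genes 0 did, from Wdr82 at 0.606 to Wdr25 at 1.76. Wdr25 had 2.71 in dDAVP experiment 3 and 1.33 to 1.55 in the other libraries. Over the 5 lists the medians of the means were 1.003, 1.26, 1.12, 1.25 and 1.03.

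The genes most like the dense ones in level across the 6 libraries were sought among 13912 genes of at least 10 kb outside that stretch, by Euclidean distance of log2 levels. Those nearest to Sgpp1 were Myt1l and Pxdn, both on chromosome 12, at distances of 0.54 and 0.59, then Mroh2a and Hjurp on chromosome 1 (1.08 and 1.14) and 2700054A10Rik on chromosome 17 (1.29). Syne2 was nearest to Esrrb, Smoc1, Cipc, Pxdn and Slc8a3, all on chromosome 12, at 0.84 to 1.04. Fut8 was nearest to Myt1l (1.19), Slc8a3 (1.61) and Pxdn (1.62), then Gm15319 on chromosome 8 (1.87) and 2700054A10Rik (2.05). Of these 5, Myt1l (43.9% GC), Slc8a3 (44.1% GC) and Gm15319 (38.9% GC) were, like Fut8, lowest in dDAVP experiment 3. That library was among those used to pick these genes, so the pick itself favoured a low value there. Myt1l had 4.26 there against 6.68 to 7.26 in the other libraries, Slc8a3 6.16 against 12.8 to 14.1 and Gm15319 1.70 against 5.13 to 6.91.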

How the data were processed

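Chromatin pulled down with IgG from mpkCCD cells was sequenced as 50-bp reads from sheared fragments of about 300 bp, per the labels' protocols. BWA placed them on mm10 (per the labels' protocols), and the submitters' processing notes also name SAMtools and bedtools. The deposited count gives, per the file headers, how many reads fell on a RefSeq transcript interval, without normalization. The deposited fraction is the share of its bases with at least 1 read, per the file headers. The sources used here do not state duplicate removal or quality filters. Overlapping genes share reads, and no strand was used.

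Of 33063 intervals, 33062 were present in all 6 libraries (1 was missing from vehicle experiment 2), and 32763 matched a symbol in RefSeq or GENCODE tables of GRCm38.p6, whose chromosome coordinates are those of mm10. A gene is represented by its longest interval. Levels are reads per kb over those of the median gene. Two-sided tests used edgeR 4.0.16 in R 4.3.3 (TMM, filterByExpr, quasi-likelihood, Benjamini-Hochberg over 30912 intervals at 0.05, no covariate), with experiments 1 and 2 summed where they agreed within noise (chi-square per degree of freedom under 1.1). On simulated data for this comparison, over 30912 intervals, 2-fold changes were found in 0 of 67 cases, 4-fold ones in 16 of 67 and 8-fold ones in 57 of 66, beside 3 false calls. The simulation gave all intervals a common dispersion of 0.159, changed only well-covered ones and held no GC trend. Its rates therefore need not hold for these libraries. Alternatives were DESeq2 1.42.0, RLE factors, no filter, 6 libraries, experiment as a block, a GC offset (50 classes), left-out libraries and 1 interval per gene. GC, masked bases and 50-mers (exact matches, both strands, 65 chromosomes and scaffolds) came from GRCm38.p6, with Python 3.11.15. The p-values reflect only how these libraries vary, possibly for technical reasons.

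All 5 genes were named throughout. Neighbours were named at edges and next to the members, with the lowest and highest, related genes by list with the lowest, the highest and any dense in every library, and the 5 most alike for each dense gene. Hspa2, Sgpp2, Syne3, Esr1, Mir5101 and Rplp2-ps1 were added after their values were seen, and 1 neighbour is not reported here. The members, lists and tests were chosen with earlier results of these data known. The Sgpp1 shares, the unique 50-mers and the 6-library fit with a block were added after seeing the data.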

Additional observations from a re-analysis of the deposited data

How the results depend on the processing

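No alternative ended or made a call: edgeR and DESeq2 called 0 intervals in each of 15 alternative fits, and 0 to 0 without any single library. At an unadjusted p under 0.05 edgeR had 236 intervals, DESeq2 1117, and the fit without vehicle experiment 3 had 1. Levels of the 5 genes moved by more than their SD only when computed from covered bases by the Poisson relation, at 3.73 for Sgpp1 (6.98 from reads) and 7.88 for Syne2 (10.5 from reads). Fut8, whose SD is wide because of dDAVP experiment 3, had 4.58 by that relation and 11.35 over its shortest interval (8.03 over the longest). Without single libraries the level of Wdr89 ran from 1.48 to 1.53, Sgpp1 from 6.97 to 7.27, Syne2 from 10.5 to 10.7, Esr2 from 1.68 to 1.71 and Fut8 from 7.29 to 9.77, the last without dDAVP experiment 3. Of 15 alternatives, the log2 ratio changed sign in 9 for Syne2, 3 for Sgpp1, 3 for Wdr89, 2 for Fut8 and 1 for Esr2, with no call gained. With the GC offset they were 0.32 for Wdr89, 0.35 for Sgpp1, 0.11 for Syne2 and 0.14 for Fut8, and with the replicate block and that offset 0.29, 0.34, 0.11 and 0.14. Without single libraries they ran from -0.12 to 0.017 for Wdr89, -0.13 to 0.077 for Sgpp1, -0.092 to 0.061 for Syne2, -0.0060 to 0.12 for Esr2 and -0.72 to -0.10 for Fut8, the fits without an experiment 3 having a lone sample in that group. For Syne2 the replicate block gave 0.00025, the 6 separate libraries 0.0051 and both together 0.0066. Same-numbered libraries did not deviate together (correlations of -0.252, -0.269 and -0.455). Because experiments 1 and 2 of a group nearly coincide, these values rest largely on how experiment 3 differed. They therefore cannot tell whether the numbers are pairs, and the main fit used no pairing. In simulated data of this size, with a common dispersion and no GC trend, 0 of 67 changes of 2-fold were called. The cause of each sign change was not tested.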
